A study of Mus musculus with 11 samples.

Results

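Translation initiation and elongation factor genes were compared between CD34+ and CD34- keratinocytes of the dorsal skin of K5-myrAkt mice. The set takes every gene whose single annotation symbol begins with Eif or Eef, without the eIF2 kinase genes (symbols beginning Eif2ak) and the Y-linked Eif2s3y. It holds 54 of the 18193 genes with a symbol of their own on the array, and each is read from its brightest probe set by mean log2 signal over all 11 arrays. Besides the factors proper, the rule takes in their binding proteins, the kinase of eEF2 and methyltransferases that act on elongation factors. Of the 54 genes, 52 passed the brightness filter, which left out the dimmest 40% of genes, and were tested. Eif1, Eif2s1, Eif3g, Eif4g1, Eef1g, the Eif3j genes and Eif4ebp3 are not analysed here.

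All mice carried the K5-myrAkt(L84) transgene, in which the keratin 5 promoter drives an active, membrane-bound Akt in the cells that use that promoter. Dorsal keratinocytes were labelled with an antibody against CD34, a surface protein of the stem cells in the follicle bulge, and sorted with magnetic beads. Total RNA of the CD34+ fraction (5 arrays) and of the CD34- fraction (6 arrays) was measured on single-channel Affymetrix arrays. Both groups share the transgene and no mice without it were analysed here, so no effect of Akt was measured. The cell type label calls the CD34- cells hair follicle stem cells too, which the design text does not. The labels give no age, sex or stage of the hair cycle, nor do they say whether each array stands for a mouse of its own. P-values therefore refer to the spread among these 11 samples, which may be technical. In bulk RNA of this kind, fewer cells of a type and less RNA per cell cannot be told apart.

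Translation begins when eIF2, bound to GTP, brings the initiator tRNA to the small ribosomal subunit, on which eIF1, eIF1A, eIF3 and eIF5 assemble. The eIF4F complex binds the cap of the mRNA and recruits that subunit, which then scans to the start codon. During elongation eEF1A delivers each aminoacyl-tRNA and eEF2 moves the ribosome along the mRNA. Signals through Akt and the kinase mTOR act on several of these proteins by phosphorylation, which RNA levels do not show. Many mRNAs for elongation factors and ribosomal proteins start with a run of pyrimidines, the 5' TOP element, through which mTOR controls their translation.

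The start sites of the 10 genes that differed between the fractions are printed here because that element, where it occurs, lies at the first bases of the mRNA. Each line gives 15 bases before and 15 bases from the RefSeq start in GRCm38.p6, read 5' to 3' on the strand of the gene, and capitals mark the longest run of at least 7 C or T.
Eif3l, chr15:79075208-79075237, plus strand: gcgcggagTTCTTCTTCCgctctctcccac
Eef2, chr10:81176616-81176645, plus strand: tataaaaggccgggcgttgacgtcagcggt
Eif2s3x, chrX:94212637-94212666, minus strand: ctgccgagcaTTTTCCTTTTCTCTCCgagc
Eif3m, chr2:105017013-105017042, minus strand: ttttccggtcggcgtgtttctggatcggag
Eef1e1, chr13:38659014-38659043, minus strand: tcaaggtcctagctgtgcaggccccgcctc
Eif5, chr12:111538086-111538115, plus strand: gagatcgacgtgcatgcgagccaatgacaa
Eif1ax, chrX:159372163-159372192, plus strand: gaggaggaggagggcggggagaagccccgc
Eif2d, chr1:131153192-131153221, plus strand: cgtcagttccgggccagcatcagggctagg
Eef1a1, chr9:78481710-78481739, minus strand: gctggctccgCCCTCTTCCCgagggtgggg
Eif2b2, chr12:85219466-85219495, plus strand: tttcaccgagcggaagttgaCCTCTCTCgg
Such a run was found in the windows of Eif3l, Eif2s3x, Eef1a1 and Eif2b2, which is 4 of the 10. It spans the annotated start in Eif3l, Eif2s3x and Eef1a1, while in Eif2b2 it begins some bases after the start. Among the 43 of the 54 genes that matched the promoter table, 12 held one (27.9%), against 22.0% of the tested genes and 21.3% of all genes in that table. The E-box CACGTG, a motif of Myc and related factors that reads the same on both strands, was searched in the 300 bases from 250 before the start. It occurred in 12 of the 43 genes (27.9%), among them Eef2, Eif4e, Eif4a1, Eif5a and Eif3f, against 12% of tested genes and 8.09% of all genes in the table. Of the 10 genes that differed, Eef2 alone held it. These matches describe letters in annotated windows and are no evidence of a site in use. A missing run, as for Eef2, is likewise no evidence that the mRNA lacks the element, since the annotated start may not be the one used.

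Cd34 itself had a log2 signal of 11.83 ± 1.17 (SD, n = 5) in the CD34+ fraction and 4.20 ± 1.57 (SD, n = 6) in the CD34- fraction. Of the marker lists, all 8 tested bulge genes and all 3 tested fibroblast genes were higher in CD34+ cells, and all 5 tested T cell genes were lower. Of the basal keratinocyte genes, 1 of 5 was lower (Itga6, -0.53, limma adjusted p = 0.00214), with a summed linear signal of 68200 to 92800 on CD34+ arrays and 73200 to 99200 on CD34- arrays. The corresponding sums were 56100 to 103000 and 32900 to 45300 for the bulge list, 3090 to 8700 and 487 to 856 for fibroblasts, 553 to 2630 and 3320 to 6470 for T cells, 4760 to 11800 and 3280 to 5380 for myeloid cells (3 of 6 tested genes higher), and 424 to 3760 and 258 to 449 for smooth muscle. Of the suprabasal genes 2 of 4 were higher and 1 lower (sums of 54900 to 88400 and 44400 to 61200), and of the melanocyte genes 1 of 5 was higher and 1 lower (7490 to 13600 and 5210 to 25900). For endothelial cells, no gene passed the filter and the sums were 150 to 329 and 121 to 183. No marker was at 0, and the part of these cells in the differences of the factor genes was not tested. The 3-prime over the 5-prime signal of the actin controls, a ratio that grows with shorter RNA or shorter labelled copies, was a log2 of 5.25, 4.56, 3.97, 2.91 and 3.06 on CD34+ arrays 1 to 5 and 2.19 to 2.76 on CD34- arrays. Among the CD34- arrays, numbers 1, 3 and 5 stood apart from 2, 4 and 6 for many genes, and the counts below are also given without either set.

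Of the 52 factor genes tested, each by its brightest probe set, 10 differed between the fractions at a limma adjusted p under 0.05, which is 19.2% against a background of 24.7% of all 10916 tested genes. In CD34+ cells 7 were lower (13.5%, background 12.3%), namely Eif3l, Eef2, Eif2s3x, Eif3m, Eef1e1, Eif5 and Eif1ax, by 1.38-fold (Eif1ax) to just under 2.0-fold (Eif3l). Another 3 were higher (5.77%, background 12.4%), namely Eif2b2, Eef1a1 and Eif2d, by 1.27-fold to 1.37-fold as deposited. Setting the arrays to equal medians lowers the difference of every gene by the same amount, and the median of all tested genes to -0.48. With it 34 factor genes were lower (background 47.7%) and 0 higher (background 3.63%, unadjusted 0), and these 3 had differences of -0.03, -0.09 and -0.14. Their change of sign follows from that common shift and is nothing particular to them. After quantile normalization Eef1a1 was at -0.09 (limma adjusted p = 0.429) and not called. Eif2b2 at 0.54 (adjusted p = 0.0282) and Eif2d at 0.44 (adjusted p = 0.0114) were still called higher there. The median log2 difference of the 52 genes was -0.15, against 0.00 over all tested genes, with 34 below 0 and 18 above. The factor genes were bright, at a median percentile of 91.3 among all genes, so most of the background is dimmer. With the dimmest 60% of genes left out, the median was -0.155 for the factor genes that remained and -0.07 for all genes tested. Without CD34- arrays 1, 3 and 5 the counts were 1 higher (background 5.09%) and 3 lower (background 4.81%), and without CD34- arrays 2, 4 and 6 they were 0 higher (background 3.34%, 1 gene at an unadjusted p under 0.05) and 1 lower (background 1.57%). Without CD34+ arrays 1 and 2 they were 0 higher (background 8.32%, unadjusted 1) and 5 lower (background 8.37%). Without CD34+ arrays 1, 2 and 3 they were 1 higher (background 8.87%) and 5 lower (background 8.71%). In that last fit the higher gene was Eif5a2, and Eif2b2, Eef1a1 and Eif2d were not called. The lower genes there were Eif3l and Eef2, with Eif3b, Eif4ebp2 and Eif5a, which were not called with all arrays. Of all tested genes, 6.93% were called with a difference of at least 2-fold, a size that no factor gene reached by its brightest probe set. Eif3l came closest, and other probe sets of Eif2s3x, Eif5, Eif4a1, Eif4ebp2 and Eif5a2 were called with larger differences, given further on.

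For the factor genes the standard error of the log2 difference had a median of 0.155, against 0.187 over all tested genes, which are mostly dimmer. The median absolute difference of the factor genes was 0.288, against 0.317. For 45 of the 52 genes the 95% interval of the difference lay within 2-fold in either direction, and for 21 it lay within 1.5-fold. In simulated data of the same size, 14 of 50 genes changed 1.5-fold and 39 of 50 changed 2-fold were recovered. The changed genes were drawn from all tested genes and not from the factor genes. They were also a far smaller share of the 10916 genes than the 24.7% called in the data, which makes the adjustment stricter. These counts therefore do not give the recovery in the data. The arrays of the 2 groups did not overlap for 8 of the 52 genes (15.4%, background 15.0%). Of these, 6 were lower in CD34+ cells (background 7.37%) and 2 were higher (background 7.64%), and Eif5a and Eif4g3 among them were not called.

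**Figure D1:**
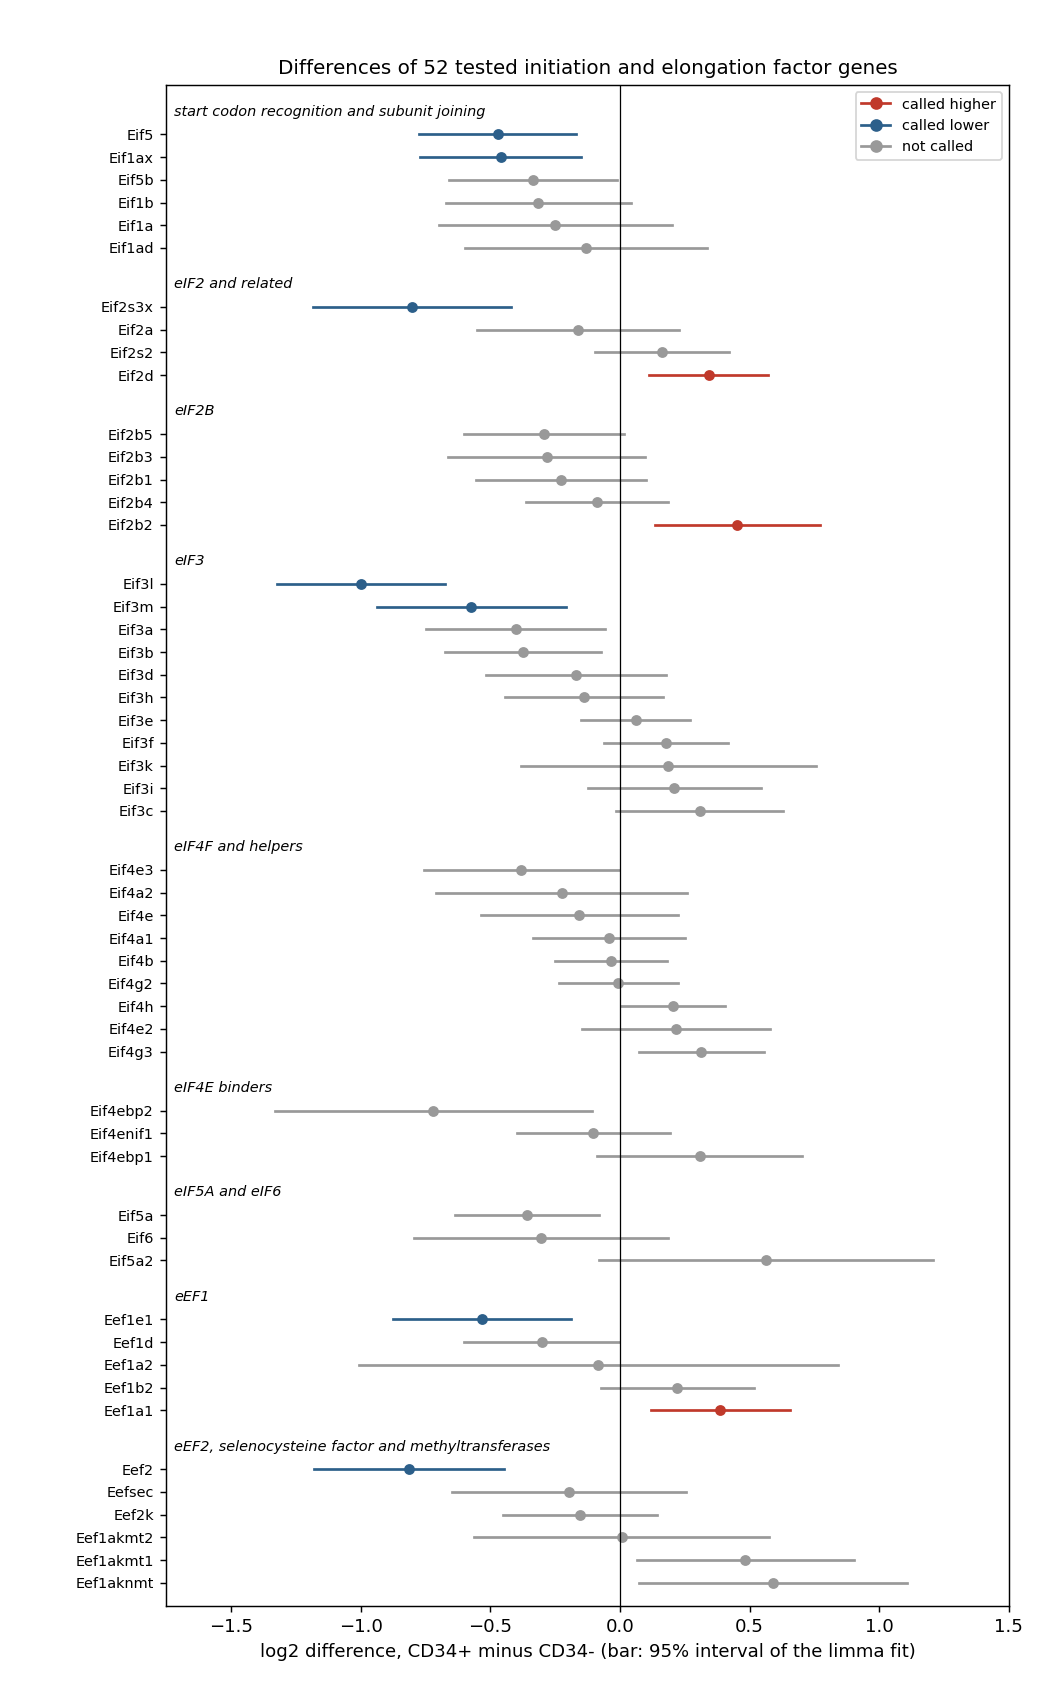
Log2 difference (CD34+ minus CD34-) of the 52 tested factor genes with its 95% interval from limma, by role. Most intervals lie within 2-fold and the 7 genes called lower reach -1.0 (Eif3l). The 3 called higher (Eif2b2, Eef1a1, Eif2d) fall below 0 when the arrays are set to equal medians, which lowers every difference by the same amount. After quantile normalization Eef1a1 falls below 0, and Eif2b2 and Eif2d stay above it.

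Among the genes for start codon recognition and subunit joining, 2 of 6 were lower in CD34+ cells, none was higher and the median difference was -0.33. Counts by role are small and are read beside the shares of all tested genes, 12.3% lower and 12.4% higher. Eif5 encodes the factor that makes eIF2 hydrolyse its GTP at the start codon, and was the brightest of the 6 as well as the one with the smallest p. It had log2 signals of 12.15, 12.76, 12.81, 12.96 and 12.95 on the CD34+ arrays and 13.02 to 13.30 (median 13.26) on the CD34- arrays. All CD34+ arrays lay below all CD34- arrays, array 1 by the widest margin. The difference was -0.47 (SE 0.14, limma adjusted p = 0.0278), and it was -0.33 without CD34+ array 1 and -0.24 (adjusted p = 0.147) without CD34+ arrays 1, 2 and 3. Eif1ax, the X-linked gene of eIF1A, which helps the ribosome to scan, had a difference of -0.46 (SE 0.14, adjusted p = 0.034), again without overlap. The gap was narrow, with CD34+ array 5 at 12.13 against the lowest CD34- array at 12.14. Leaving out CD34+ array 1 ended the call of Eif1ax (-0.33, adjusted p = 0.051), as did leaving out arrays 1, 2 and 3 (-0.17, adjusted p = 0.324), and it was at -0.05 (adjusted p = 0.818) as the mean of its probe sets. The other 4 genes (Eif1a, Eif1ad, Eif1b and Eif5b, the GTPase that joins the subunits) had differences of -0.34 to -0.13 and were not called.

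Of the 4 genes for eIF2 and related carriers of initiator tRNA, Eif2s3x was lower and Eif2d higher in CD34+ cells. Eif2s3x encodes the gamma subunit of eIF2, which binds GTP and the initiator tRNA. Its log2 signals were 11.33, 11.56, 11.18, 12.13 and 12.11 on CD34+ arrays and 12.18 to 12.69 (median 12.52) on CD34- arrays. CD34+ arrays 1, 2 and 3 were the lowest, and arrays 4 and 5 came close to the lowest CD34- array. The difference was -0.80 (SE 0.18, adjusted p = 0.00664), and without CD34+ arrays 1, 2 and 3 it was -0.34 (adjusted p = 0.109). Eif2d, which can deliver tRNA to the ribosome without GTP, had signals of 11.59, 11.36, 11.51, 11.29 and 11.24 against 10.93 to 11.16 (median 11.06). Every CD34+ array was above every CD34- array, with a difference of 0.34 (SE 0.11, adjusted p = 0.0332). This difference became -0.14 with equal medians and 0.44 (adjusted p = 0.0114) after quantile normalization. Eif2s2, the beta subunit and the brightest of the 4, had signals of 12.97, 12.55, 12.63, 12.48 and 12.64 against 12.18 to 12.66 (median 12.54). These overlap over most of their range, and the difference of 0.16 was not called (adjusted p = 0.34). Eif2a, which can bring initiator tRNA by another route, was not called either, at -0.16 (adjusted p = 0.541).

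The exchange factor eIF2B returns eIF2 to its GTP form and is the step that phosphorylated eIF2 blocks. Of its 5 subunit genes, Eif2b2 was higher and the other 4, with differences of -0.29 to -0.09, were not called. Eif2b2 was also the brightest, at 11.46, 11.52, 11.17, 10.89 and 10.76 on CD34+ arrays and 10.56 to 10.90 (median 10.69) on CD34- arrays. CD34+ arrays 4 and 5 lay inside the CD34- range, so the difference of 0.45 (SE 0.15, adjusted p = 0.0396) came from arrays 1 to 3. Without those arrays it was 0.12, and as the mean of all Eif2b2 probe sets it was -0.03. After quantile normalization of all arrays it was 0.54 (adjusted p = 0.0282). Eif2b5, the catalytic subunit, had a difference of -0.29 (adjusted p = 0.145).

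Of the 11 eIF3 genes, whose products form the large complex that holds the small subunit ready for mRNA, 2 were lower in CD34+ cells and none was higher. The median difference was -0.14. Eif3l had the smallest p of all factor genes, with signals of 11.27, 11.58, 12.17, 11.73 and 12.11 on CD34+ arrays and 12.66 to 12.93 (median 12.76) on CD34- arrays. The groups did not overlap, and every fit with 1 array left out kept the call, with adjusted p of at most 0.00228. The difference was -1.0 (SE 0.15, adjusted p = 0.000639), and without CD34+ arrays 1, 2 and 3 it was -0.85 (adjusted p = 0.000786). The call was lost in the fit that includes the actin ratio (-0.62, adjusted p = 0.183), which called 0.275% of all tested genes lower. It was also lost as the mean of all Eif3l probe sets, dim ones included, which gave -0.01 (adjusted p = 0.988). Eif3m was lower by a difference of -0.57 (SE 0.17, adjusted p = 0.0267), with some overlap, and by -0.25 without CD34+ arrays 1, 2 and 3. In the complex the Eif3k and Eif3l proteins sit next to each other, and Eif3k had a difference of 0.19 (SE 0.27, adjusted p = 0.634). Eif3f, the brightest, had signals of 14.85, 14.77, 14.93, 14.45 and 14.60 against 14.29 to 14.70 (median 14.56), which overlap, and a difference of 0.18 (adjusted p = 0.253). The other uncalled subunit genes ranged from Eif3a at -0.40 (adjusted p = 0.0817) and Eif3b at -0.37 (adjusted p = 0.0651) to Eif3c at 0.31 (adjusted p = 0.145).

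**Figure D2:**
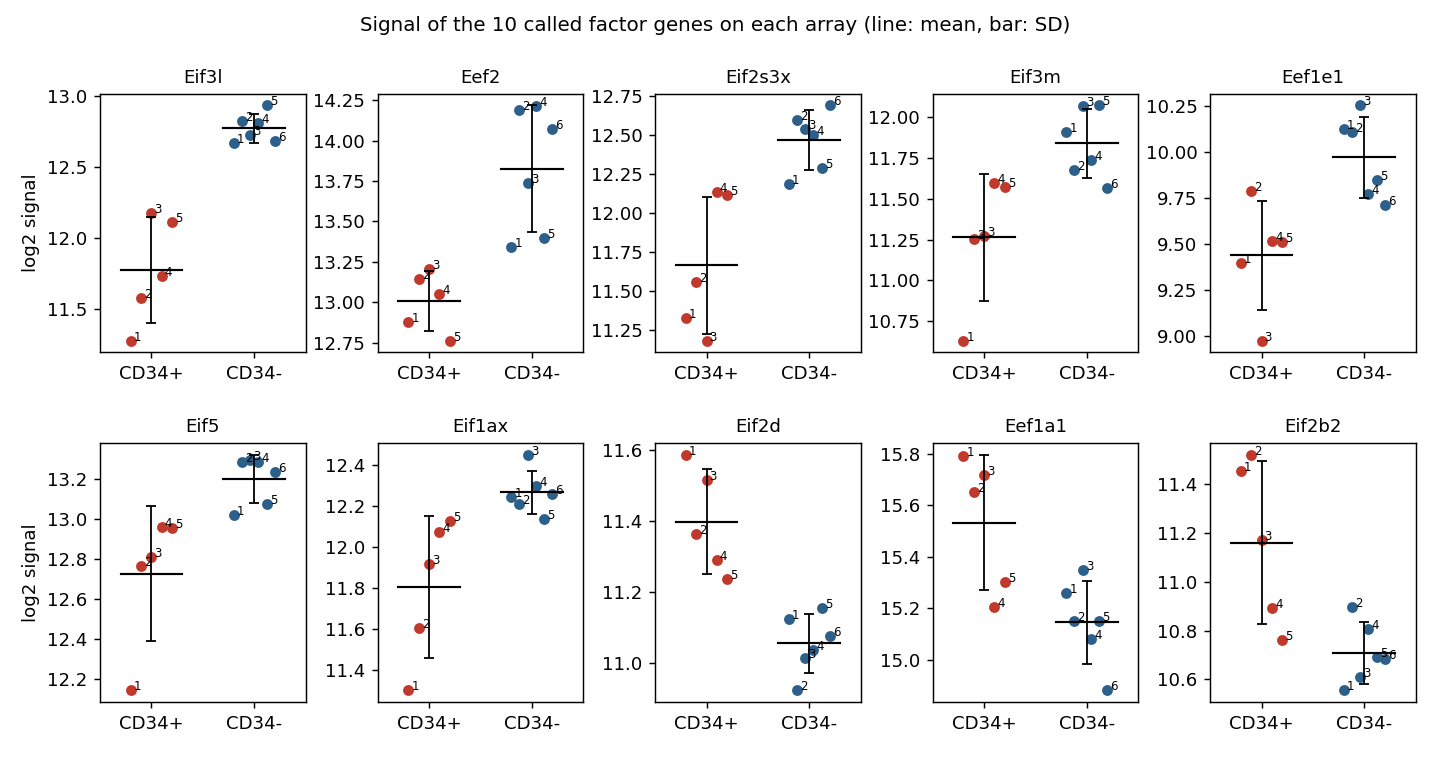
Log2 signal on each of the 5 CD34+ and 6 CD34- arrays for the 10 called factor genes, with the mean (line) and SD (bar) of each group. The groups do not overlap for Eif3l, Eef2, Eif2s3x, Eif5 and Eif1ax, all lower on CD34+ arrays, nor for Eif2d, which was higher as deposited. Eif2d was at -0.14 with equal medians, which lower every difference by the same amount, and at 0.44 after quantile normalization.

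The eIF3 genes also varied together among the CD34- arrays. For 8 of the 11, CD34- arrays 1, 3 and 5 were all above arrays 2, 4 and 6, a pattern held by 13.5% of all tested genes, and for none were they all below. Eif3k showed it most, at 12.03, 12.08 and 12.36 on arrays 1, 3 and 5 and 10.92, 10.94 and 11.25 on arrays 2, 4 and 6. Eif3i lay at 13.97 to 14.12 on the first 3 and at 13.56 on each of the others. Eif3a, Eif3e and Eif3l did not show it. The labels give nothing that sets these arrays apart, and the pattern was seen after the values were examined and carries no test.

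**Figure D3:**
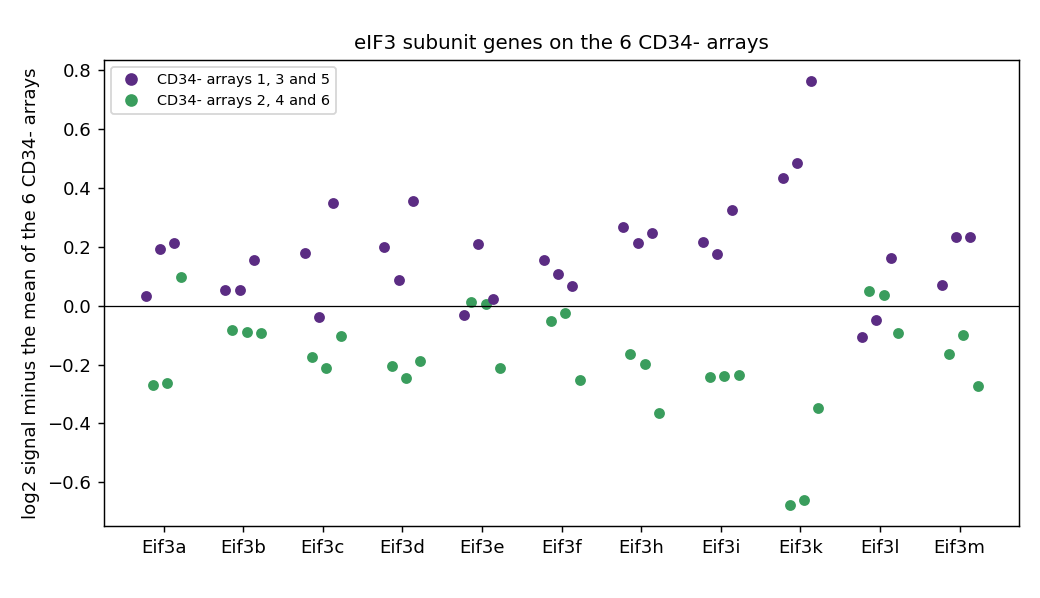
Log2 signal of the 11 eIF3 genes on each CD34- array, minus the mean of the 6 arrays, with arrays 1, 3 and 5 and arrays 2, 4 and 6 in different colours. Eif3k spreads the most, and 8 genes have arrays 1, 3 and 5 above the rest.

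None of the 9 tested genes of eIF4F and its helpers was called by limma, while 3 had an unadjusted p under 0.05 and 1 was called by the exact rank-sum test. Their median difference was -0.03 and their range -0.38 to 0.31. Eif4e encodes the cap-binding protein, and had signals of 11.07, 10.45, 9.89, 10.37 and 10.41 on CD34+ arrays and 10.28 to 10.77 (median 10.69) on CD34- arrays. CD34+ array 1 was the highest of all 11 and array 3 the lowest, and the difference of -0.16 (SE 0.18, adjusted p = 0.541) had a 95% interval of -0.54 to 0.22. Eif4g2, a scaffold related to eIF4G that lacks the cap-binder's site, differed by -0.01 (95% interval -0.24 to 0.22), and Eif4b, which aids the helicase, by -0.03 (-0.25 to 0.18). For these probe sets both intervals lie within 1.5-fold on the deposited scale. With equal medians, however, the differences were -0.51 for Eif4b (adjusted p = 0.00662) and -0.49 for Eif4g2 (adjusted p = 0.00705), and another probe set of Eif4b was called lower at -0.63 (adjusted p = 0.00647). Eif4h, a helicase partner and the brightest of the 9, had signals of 14.85, 14.63, 14.59, 14.41 and 14.65 against 14.36 to 14.51 (median 14.39). It was higher on 4 of 5 CD34+ arrays than on any CD34- array, by 0.21 (adjusted p = 0.123). Eif4g3, a scaffold, was above the CD34- range on all 5 CD34+ arrays, with a difference of 0.31 (SE 0.11, adjusted p = 0.0556), and was the gene the rank-sum test called.

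The helicase genes Eif4a1 and Eif4a2 encode near-identical proteins. Eif4a1 had signals of 13.04, 12.88, 12.45, 12.84 and 12.85 on CD34+ arrays and 12.53 to 13.17 (median 12.85) on CD34- arrays, a difference of -0.04 (adjusted p = 0.843). Eif4a2 had signals of 13.08, 11.86, 11.78, 12.07 and 11.73 against 12.04 to 12.90 (median 12.31), and was high on CD34+ array 1. The log2 ratio of Eif4a1 to Eif4a2 within an array, which a single scaling factor per array leaves unchanged, was 0.71 ± 0.46 (SD, n = 5) in CD34+ cells and 0.52 ± 0.33 (SD, n = 6) in CD34- cells (two-sided exact permutation p = 0.452, adjusted p = 0.452 over the 6 ratios tested). The difference of 0.18 was 0.08 without CD34+ array 5, 0.37 without CD34+ array 1 and -0.31 with plain _at probe sets.

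The eIF4E binders encoded by Eif4ebp1 and Eif4ebp2 keep eIF4E from the scaffold, and mTOR relieves that block by phosphorylating them. The group of binders also takes in Eif4enif1, at -0.10 (adjusted p = 0.609). None of the 3 genes was called, 1 had an unadjusted p under 0.05, and the rank-sum test called none. Eif4ebp1, the brightest, had signals of 10.97, 10.96, 11.40, 10.40 and 10.97 on CD34+ arrays and 10.27 to 11.05 (median 10.61) on CD34- arrays, which overlap, with a difference of 0.31 (adjusted p = 0.231). Eif4ebp2 had signals of 8.16, 10.30, 9.79, 9.60 and 9.32 against 9.85 to 10.44 (median 10.12). It lay below the CD34- range on 4 of 5 CD34+ arrays, most on array 1, and its difference of -0.72 (SE 0.29, adjusted p = 0.0785) was the lowest among the genes not called. Without CD34+ array 1 it was -0.40 (adjusted p = 0.123). Eif4ebp2 was called lower without CD34+ arrays 1 and 2 (-0.585, adjusted p = 0.0272) and without arrays 1, 2 and 3 (-0.70, adjusted p = 0.0183). It was not called with the actin ratio (-0.36, adjusted p = 0.784) or as the mean of its probe sets (-0.23, adjusted p = 0.607). The ratio of Eif4e to Eif4ebp1 was -0.50 ± 0.63 (SD, n = 5) in CD34+ and -0.04 ± 0.47 (SD, n = 6) in CD34- cells (exact permutation p = 0.195, adjusted p = 0.39). That of Eif4e to Eif4ebp2 was 1.01 ± 1.15 (SD, n = 5) and 0.44 ± 0.17 (SD, n = 6), respectively (exact permutation p = 0.277, adjusted p = 0.416). Neither ratio differed beyond the spread between arrays. The difference in the first went from -0.47 to -0.21 without CD34+ array 3, and that in the second from 0.56 to 0.09 without CD34+ array 1. Both ratios rest on the brightest Eif4e probe set, at a mean of 10.53. Another Eif4e probe set, at a mean of 10.44, was called lower without overlap, at -0.90 (limma adjusted p = 0.00261). Ratios with that probe set were not computed.

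Of Eif5a, Eif5a2 and Eif6, none was called by limma, while 1 had an unadjusted p under 0.05 and the rank-sum test called 1, Eif5a. The eIF5A protein carries hypusine, an amino acid made for it alone, and helps the ribosome through difficult peptide bonds. Eif5a had signals of 14.31, 13.62, 14.27, 13.84 and 14.23 on CD34+ arrays and 14.32 to 14.56 (median 14.40) on CD34- arrays. The CD34+ arrays were all lower, 3 of them by little, and the difference was -0.36 (SE 0.13, adjusted p = 0.0557). Its paralog Eif5a2 had signals of 8.17, 7.16, 6.66, 8.46 and 7.80 against 6.81 to 7.36 (median 7.05), a difference of 0.56 (adjusted p = 0.18). Arrays 1, 4 and 5 were above the CD34- range and array 3 was below it. Without CD34+ arrays 1, 2 and 3, Eif5a2 was called higher, at 1.04 (adjusted p = 0.016). With equal medians and all arrays it was at 0.08 (adjusted p = 0.84). The ratio of Eif5a to Eif5a2 was 6.40 ± 0.81 (SD, n = 5) in CD34+ and 7.33 ± 0.28 (SD, n = 6) in CD34- cells, a difference of -0.92 (exact permutation p = 0.0325, adjusted p = 0.0974). Without CD34+ array 3 it was -1.23 (exact permutation, adjusted p = 0.0286). Eif6, which keeps the subunits apart until the large one is mature, had a difference of -0.31 (SE 0.23, adjusted p = 0.345).

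Among the 5 eEF1 genes, Eef1a1 was higher and Eef1e1 lower in CD34+ cells. Eef1a1, which encodes the carrier of aminoacyl-tRNA and was the brightest, had signals of 15.79, 15.65, 15.71, 15.20 and 15.30 on CD34+ arrays and 14.88 to 15.35 (median 15.15) on CD34- arrays. Arrays 1 to 3 were above the CD34- range and arrays 4 and 5 within it. The difference was 0.39 (SE 0.12, adjusted p = 0.0373), but -0.09 after quantile normalization and with equal medians, and 0.11 without CD34+ arrays 1, 2 and 3. Eef1a2, its paralog of muscle and nerve, had signals of 6.84, 7.38, 6.02, 7.91 and 7.34 against 5.51 to 7.86 (median 7.55), and a wide 95% interval of -1.01 to 0.84. The ratio of Eef1a1 to Eef1a2 was 8.44 ± 0.92 (SD, n = 5) in CD34+ and 7.97 ± 0.88 (SD, n = 6) in CD34- cells (exact permutation p = 0.409, adjusted p = 0.452). The difference of 0.47 was 0.155 without CD34+ array 3. Eef1e1 encodes a scaffold protein of the multi-tRNA-synthetase complex. Its signals of 9.40, 9.79, 8.97, 9.52 and 9.51 lay mostly below the CD34- range of 9.71 to 10.25 (median 9.98), with overlap at CD34+ array 2. The difference was -0.53 (SE 0.16, adjusted p = 0.0282), and it was -0.46 without CD34+ arrays 1, 2 and 3. Eef1b2 and Eef1d, subunits that reload eEF1A with GTP, had differences of 0.22 and -0.30 and were not called.

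Of eEF2, its kinase, the selenocysteine factor and the methyltransferases, 1 of 6 tested genes was called, Eef2 itself, lower in CD34+ cells. Its signals were 12.88, 13.15, 13.21, 13.05 and 12.76 on CD34+ arrays and 13.34 to 14.21 (median 13.91) on CD34- arrays. The groups did not overlap, although CD34- arrays 1, 3 and 5 (13.34 to 13.74) lay closer to the CD34+ arrays than arrays 2, 4 and 6 (14.07 to 14.21). The difference was -0.82 (SE 0.17, adjusted p = 0.00492), and it was -0.92 without CD34+ arrays 1, 2 and 3 (adjusted p = 0.017). As the mean of all Eef2 probe sets, dim ones included, it was -0.28 (adjusted p = 0.687). The gene of the kinase that inactivates eEF2, Eef2k, had signals of 11.59, 12.09, 11.91, 11.63 and 11.38 against 11.59 to 12.08 (median 11.87), which overlap, and a difference of -0.15 (SE 0.14, adjusted p = 0.438). The log2 ratio of Eef2 to Eef2k was 1.29 ± 0.14 (SD, n = 5) in CD34+ and 1.95 ± 0.28 (SD, n = 6) in CD34- cells, a difference of -0.66 without overlap (exact permutation p = 0.00433, adjusted p = 0.026). Without any 1 of the CD34+ arrays the difference in this ratio stayed at -0.69 to -0.60. The adjusted p was 0.0571 without CD34+ array 1, 2, 4 or 5 and 0.0286 without array 3 (exact permutation). Fewer arrays allow fewer regroupings and so a larger smallest p, and the adjustment depends on the other ratios. These adjusted p therefore do not show that the result rests on any of the arrays. With probe sets of the plain _at kind the difference was -0.27 (exact permutation, adjusted p = 0.571). The methyltransferase gene Eef1aknmt, the dimmest tested at a mean of 6.93, had signals of 7.72, 7.0, 7.29, 7.14 and 7.13 against 6.35 to 7.06 (median 6.62). It had a difference of 0.59 (SE 0.24, adjusted p = 0.086), with overlap. The other methyltransferase genes Eef1akmt1 and Eef1akmt2 were at 0.48 and 0.01, and Eefsec, which delivers selenocysteine, was at -0.20, none of them called.

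The other dimmest values belong to the 2 genes under the filter, for which no test was made. Eef2kmt, a methyltransferase of eEF2, had a mean of 5.03 and signals of 6.57, 4.80, 5.67, 6.04 and 5.62 on CD34+ arrays and 3.75 to 5.44 (median 4.27) on CD34- arrays. Eif4a3, a helicase of the exon junction complex, had 4.78, 5.17, 3.63, 2.59 and 3.93 against 2.50 to 5.61 (median 3.17). These are dim signals of single probe sets and say nothing on whether the genes are used, since no detection calls were used. None of the 52 tested genes had passed through its level in 1 group only.

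The choice of probe set mattered. The 54 genes have 141 probe sets, of which 120 passed a filter of the same kind. Of these 120, 7 were higher in CD34+ cells (background 11.0% of passing probe sets) and 15 lower (background 9.77%). Of the 10 called genes, 7 have another passing probe set, and each of the 7 has at least 1 whose difference has the opposite sign. For Eif1ax that one was called, at 0.73 (limma adjusted p = 0.0169), against -0.46 for the one used. For Eif3l they were 0.69 (adjusted p = 0.0647) and 0.29, at mean signals of 7.46 and 6.195 against 12.32 for the one used. For Eif3m it was 1.73 (SE 0.61, adjusted p = 0.0564), at a mean of 6.33 against 11.58. The means of 6.195 and 6.33 lie under the 6.59 that was asked of genes. Another probe set was called the same way for Eif2s3x (-1.10, adjusted p = 0.000558), Eif5 (-1.10, adjusted p = 0.00179) and Eif2d (0.81, adjusted p = 0.0331). Eef1a1, Eef1e1 and Eef2 have none to compare. Conversely, 8 genes that were not called have another probe set that was. Lower were those of Eif4e at -0.90 (adjusted p = 0.00261), Eif2a at -0.65 (adjusted p = 0.00426) and Eif4b at -0.63 (adjusted p = 0.00647). Also lower were those of Eef2k at -0.81 (adjusted p = 0.0231), Eif4a1 at -1.28 (adjusted p = 0.0323) and Eif4ebp2 at -1.13 (adjusted p = 0.0412). Higher were those of Eif2s2 at 0.775 (adjusted p = 0.0119) and Eif5a2 at 1.28 (adjusted p = 0.0336). Part of a gene's probe sets can read other transcript ends or forms, and which of them does so was not tested.

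**Figure D4:**
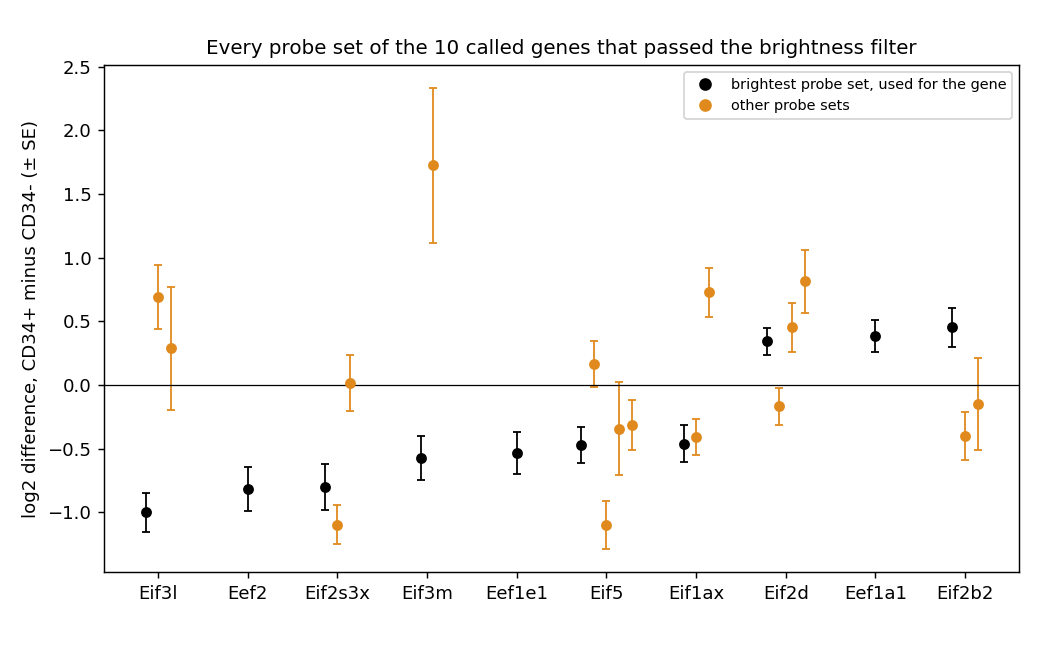
Log2 difference (CD34+ minus CD34-) of each passing probe set of the 10 called genes, in black for the one used, with bars of 1 SE. Eif3l, Eif3m and Eif1ax have probe sets on both sides of 0, those above 0 being dimmer than the one used, while Eef2, Eef1a1 and Eef1e1 rest on 1 probe set each.

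Most of the called genes stood further from the CD34- mean on the CD34+ arrays with a high actin ratio. CD34+ arrays 1, 2 and 3 were all further from it than arrays 4 and 5 for 7 of the 10, and not so for Eef2, Eef1e1 and Eif3l. No share of all tested or all called genes is given for this count, so it is not read as a result about the factor genes. Eef2 was furthest on array 5 and Eef1e1 on array 3. Relative to the CD34- mean, the median of the 7 lower genes was -1.05, -0.66, -0.60, -0.33 and -0.35 on CD34+ arrays 1 to 5, and that of the 3 higher genes was 0.65, 0.51, 0.46, 0.19 and 0.16. Both medians were largest on arrays 1 to 3, where the actin ratio was 3.97 to 5.25, and smallest on arrays 4 and 5, where it was 2.91 and 3.06. These genes were chosen for their difference, so only the order of the CD34+ arrays is described here. Over all 52 genes the medians were 0.12, -0.01, -0.06, -0.20 and -0.07 on the same arrays and -0.08 to 0.06 on the CD34- arrays. With the actin ratio as a covariate no factor gene was called by limma (Eif3l -0.62, adjusted p = 0.183, and Eef2 -0.90, adjusted p = 0.152), 4 had an unadjusted p under 0.05, and 7 of the 10 kept their sign. That fit also called 0.879% (higher) and 0.275% (lower) of all tested genes, and its median standard error for the factor genes was 0.227 in place of 0.155. Without CD34+ arrays 1, 2 and 3 all 10 kept their sign and 2 of them, Eif3l and Eef2, were called. The part of RNA length in any of these differences was not tested.

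**Figure D5:**
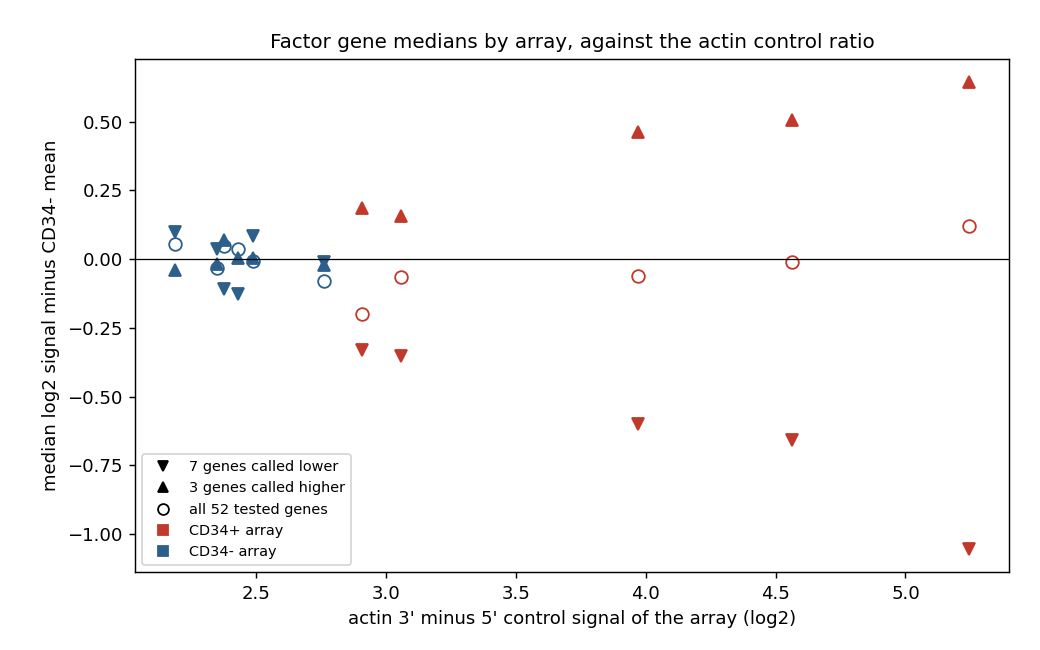
Median log2 signal, relative to the CD34- mean, of the called genes (triangles) and of all 52 tested genes (open circles) on each CD34+ (red) and CD34- (blue) array, against the log2 ratio of the 3-prime to the 5-prime actin control probe set. The 5 CD34+ arrays spread from 2.91 to 5.25 on the horizontal axis, and the 7 lower and 3 higher genes lie furthest from 0 at the high end. The 3 higher genes have differences below 0 with equal medians, which lower every difference by the same amount.

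Other genes of translation were read from lists by function, each beside the background of 12.4% higher and 12.3% lower. Of 5 tested genes for termination and recycling, 3 were lower in CD34+ cells and none was higher, with a median of -0.68. Abce1, the ATPase that splits the ribosome after termination, had signals of 9.82, 9.53, 9.95, 9.79 and 10.06 on CD34+ arrays and 10.22 to 10.67 (median 10.53) on CD34- arrays. It differed by -0.68 (SE 0.13, adjusted p = 0.00274) with no overlap. Named after their values were seen, the release factor genes Etf1 and Gspt1 completed the count at -0.73 (adjusted p = 0.0108) and -0.72 (adjusted p = 0.00357). All 3 were called in each of the 11 fits with 1 array left out and without CD34+ arrays 1, 2 and 3. In the fit that includes the actin ratio none of them was called (Abce1 -0.51, Gspt1 -0.56 and Etf1 -0.14, adjusted p of 0.267, 0.279 and 0.817). That fit called 0.275% of all tested genes lower, so the loss of the calls is nothing particular to these genes. As the mean of probe sets, Etf1 was at -0.30 (adjusted p = 0.333) and Gspt1 at -0.22 (adjusted p = 0.202), and neither was called.

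Of 12 tested genes for the eIF2 kinases and the stress response, 2 were lower and 2 higher. Eif2ak3, the kinase of the endoplasmic reticulum known as PERK, had signals of 8.66, 9.30, 9.35, 9.46 and 9.53 against 9.69 to 10.16 (median 10.01), a difference of -0.72 (SE 0.16, adjusted p = 0.00718). Impact, an inhibitor of the kinase GCN2, had signals of 10.64, 9.64, 9.55, 9.87 and 9.81 against 8.85 to 9.33 (median 9.20), a difference of 0.77 (SE 0.19, adjusted p = 0.00987). Both were free of overlap, and Impact was still above 0 with equal medians, at 0.29. Of the stress targets, Ppp1r15a was at -0.69, Trib3 at 0.51 and Atf4 was not called (-0.24, adjusted p = 0.512), all 3 named after their values were seen.

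Of 8 tested genes for hypusine and diphthamide, the modifications of eIF5A and eEF2, Dhps alone was called. This first enzyme of hypusine synthesis had signals of 10.20, 10.10, 9.97, 9.85 and 9.96 against 9.35 to 9.69 (median 9.53), higher without overlap by 0.49 (SE 0.12, adjusted p = 0.0115). With equal medians, which lower every difference by the same amount, Dhps was at 0.01. Of 19 tested genes for cap-binding regulation and poly(A) binding, 3 were lower and none higher. The TOP mRNA binding protein gene Larp1 had signals of 10.66, 11.11, 11.44, 10.85 and 10.98 against 11.31 to 11.66 (median 11.54), with overlap at CD34+ array 3, and differed by -0.49 (SE 0.14, adjusted p = 0.0227). Of 21 tested genes of cytosolic tRNA synthetases, 4 were lower and 1 higher. Aimp1, a scaffold of the synthetase complex to which Eef1e1 also belongs, had signals of 10.87, 10.48, 10.73, 10.71 and 11.03 against 11.12 to 11.63 (median 11.45), lower without overlap by a difference of -0.63 (SE 0.13, adjusted p = 0.00455). Aars, the alanine enzyme, had signals of 10.31, 10.05, 10.13, 9.78 and 10.06 against 9.49 to 9.87 (median 9.61), with overlap, and a difference of 0.41 (SE 0.13, adjusted p = 0.0358) that was -0.07 with equal medians. Of 10 tested mitochondrial translation factors none was called by limma or by the exact rank-sum test, and 1 had an unadjusted p under 0.05.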

How the data were processed

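Total RNA of 5 CD34+ and 6 CD34- keratinocyte fractions was measured on single-channel Affymetrix arrays, with groups and replicate numbers as the titles give them. The authors deposited a log2 value for each probe set on each array. Per the submitters' processing notes the tool was MAS5, of which version and settings are unknown here. That the scale is log2 was read from the values, since the linear signal of every array had a mean of 500.002 to 500.004 after trimming 2% from each end. The values were used as deposited, with no further normalization between arrays and no detection calls. The array medians were 6.71 to 7.23 on CD34+ and 6.36 to 6.51 on CD34- arrays, so scaling by medians shifts all differences by the same amount.

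Of 45101 probe sets, 34945 had 1 gene symbol in the platform annotation, 932 had several and 9160 had none, besides 64 controls. Only the first kind was named, and 34741 of them were also named in the GRCm38.p6 RefSeq table. The brightest probe set stood for a gene, and the dimmest 40% of genes (mean log2 under 6.59) were left out. The 10916 remaining genes were fitted with limma 3.58.1 in R 4.3.3 (eBayes with trend, 5.5 prior degrees of freedom), with Benjamini-Hochberg adjustment over all of them, and called at an adjusted p under 0.05. Adjusted p of genes and probe sets are limma's. Ratios within an array were compared by a two-sided exact permutation test over all 462 regroupings (smallest p 0.00216), adjusted over 6 ratios. The ratios of Eif4g1 to Eif4g2 and of Eif2s1 to Eif2b5, which had been planned, were not computed because Eif4g1 and Eif2s1 are not analysed here. The limma step was tested on simulated data of 10916 genes.

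The genes, role groups, lists and alternatives were chosen with earlier results of these data known. Values on every array are given for the called gene with the smallest p in each direction and the brightest gene of each role group, for the genes in ratios, for those next to the brightness filter, and for the called gene with the smallest p in each direction of the other lists. Other values were selected after they were seen. Start sites came from the RefSeq promoter table, in which 43 of 54 genes were found. The number of arrays limits the precision.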

Additional observations from a re-analysis of the deposited data

Results flagged for a closer look

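For each factor gene, the highest and the lowest array of each group was compared with the others by Dixon's test. Of 108 groups of arrays examined, 4 had an array that stood apart at the 95% level, where chance gives about 1 in 20. Of these, 3 were on CD34+ array 1, the array with the highest actin ratio. Eif4a2, a helicase of eIF4F, had a log2 signal of 13.08 on CD34+ array 1 against 11.74 to 12.07 on the other CD34+ arrays. In the other fraction, Eif4a2 was at 12.90 on CD34- array 2 against 12.04 to 12.36. Eif4e2, a cap-binding relative of eIF4E, was at 12.61 on CD34+ array 1 against 11.54 to 11.84. Eif5 was at 12.15 on that array against 12.76 to 12.96, and its difference between the fractions was -0.47 with all arrays and -0.33 without this one.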

How the results depend on the processing

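With all arrays 3 factor genes were higher, 7 were lower and the median log2 difference was -0.15. Equal medians gave 0 higher and 34 lower (unadjusted p under 0.05: 0 and 36) with a median of -0.63, where the median of all tested genes was -0.48. The mean of a gene's probe sets gave 3 lower (Eef1e1, Eif2s3x and Eif5a) and a median of -0.09, with Eif2d and Eif5a2 higher. Array weights gave 1 higher (Eif5a2), and Eef1e1, Eef2, Eif1b, Eif2s3x, Eif3b, Eif3l, Eif4ebp2, Eif5 and Eif5a were lower. The actin ratio as a covariate gave 0 and 0 (unadjusted 0 and 4) and a median of -0.094. An adjusted p under 0.01 gave 0 higher and 3 lower. Testing every probe set, 6 genes had any higher and 13 any lower, and 1 and 2 had all of them so. Without CD34+ arrays 1 and 2 there were 0 higher (unadjusted 1), and without 1, 2 and 3 there was 1, Eif5a2. Chosen after seeing the data, fits without CD34- arrays 1, 3 and 5 gave 1 higher and 3 lower, and without 2, 4 and 6 gave 0 higher (unadjusted 1), 1 lower and a median of -0.092. The cause of these changes was not tested. No share of all tested genes is given for the mean of probe sets, array weights, the adjusted p under 0.01 or the fits without 1 array. Those counts are therefore not read as a result about the factor genes.

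Leaving out 1 array gave 0 to 3 higher and 3 to 10 lower genes, with medians of -0.154 to -0.089, the last without CD34+ array 3. No gene was higher without CD34+ array 1 or CD34- array 4 or 6 (unadjusted 4, 4 and 5), 1 was without CD34+ array 2 or CD34- array 2, 3 or 5, and 2 were without CD34+ array 3. The lower count was 4 without CD34- array 2 and 3 without CD34- array 3. The difference in the ratio of Eef2 to Eef2k was -0.74 to -0.59 over these fits and -0.27 with plain _at probe sets, and that of Eif5a to Eif5a2 was -1.23 to -0.67.

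The replicate number as a block gave 0 higher (unadjusted 5, background 9.55%) and 5 lower genes (background 9.08%) and a median of -0.13. Same-numbered arrays had correlated deviations of 0.02 to 0.19, and 1 of 5 CD34+ arrays correlated best with its own number, so the numbers were not taken to pair the samples.

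With equal medians, which lower every difference by the same amount, 15 of the 52 differences turned sign. Among genes called before or after the change, signs turned for Eef1a1 (-0.088 by quantile normalization, -0.093 by equal medians), Eif2b2 (-0.028 by equal medians, -0.032 by the mean of probe sets, -0.013 with the actin ratio), Eif2d (-0.14) and Eif3e (-0.42) by equal medians, Eif1ax (0.052) and Eif3m (0.015) with the actin ratio, Eif3m (0.57) by the mean of probe sets, and Eif2s3x (0.017) by plain _at probe sets. Quantile normalization, the brightness filters, the offset, raised dim values, moderation, plain _at probe sets and the rank-sum test kept both counts within 1.5 times.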

Other observations

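Across all 52 tested factor genes, CD34- arrays 1, 3 and 5 were all above arrays 2, 4 and 6 for 17 (32.7%, against 13.5% of all tested genes) and all below for 7 (13.5%, against 14.5%). Besides the eIF3 genes, those above included Eef1b2, Eef1d and Eif6, and those below were Eef2, Eef2k, Eif4a1, Eif2b3, Eif2b4, Eif4ebp2 and Eif4enif1. Over all tested genes, the deviations of these arrays from their group mean had correlations of -0.12 to 0.11 for the 6 pairs within either set and of -0.53 to 0.00 for the 9 pairs between the sets. The sets of arrays were picked from these values, so none of this is a test. Centering on the mean of the same 6 arrays also makes such correlations negative in part by construction.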
